A study of Mus musculus with 24 samples.

Results

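Ubiquitin specific proteases (USPs) are the largest family of the enzymes that take ubiquitin off other proteins. Their genes are described here in mouse leg muscle that was unloaded, by the change of each probe set with unloading in each of 3 genotypes and by the difference between weight-bearing Nfkb1-/- and wild type muscle. Members were all probe sets of the array whose annotated gene symbol was Usp followed by a digit. Usp18, which takes off the ubiquitin-like protein ISG15, was not counted. The rule found 70 probe sets. Of these, 67 were listed with 1 gene and together represented 38 of the 12393 genes of the array, and 3 were listed with several genes and are not named. Probe sets with intensities over 20 on 4 or more of the 24 arrays were tested, and 63 of the 67, for 36 of the 38 genes, met this minimum. The probe sets of Usp26 and Usp29 and 1 of those of Usp9x were not tested. Of the 63, 40 (26 genes) reached that minimum on the wild type and Nfkb1-/- arrays, and the other 23 passed through the Bcl3-/- arrays, whose values were on a higher scale.

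The study unloaded the hind limbs of mice for 6 days and asked which genes of the atrophying muscle need the NF-κB subunit p50, the product of Nfkb1, or its partner Bcl-3. RNA of the gastrocnemius and plantaris muscles of 24 mice was hybridized to 1 Affymetrix array per mouse. Groups of 4 mice were hind limb unloaded (HU) or weight bearing (WB): Nfkb1-/- HU and WB (strain B6;129P2-Nfkb1tm1Bal/J), Bcl3-/- HU and WB (FVB;129P2-Bcl3tm1Ver/J) and wild type HU and WB (B6129PF2/J). All mice were 6-week-old males when bought and were kept in the facility for some days before the unloading began. Both genes were inactivated in every cell and not only in muscle, and the Bcl3-/- strain carries FVB genes that the wild type strain does not.

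Ubiquitin is attached to proteins by a chain of E1, E2 and E3 enzymes, and in atrophying muscle some of the E3 ligases that mark proteins for the proteasome are strongly induced. USPs are cysteine proteases that reverse this step. Different members act at the proteasome, on free ubiquitin chains, on ubiquitinated histones, in DNA repair, in splicing, at the endoplasmic reticulum and in signalling, so that the family does not act as 1 pathway.

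Array values were linear intensities after background correction and normalization. The medians of the 16 wild type and Nfkb1-/- arrays were 11.6 to 11.9 and those of the 8 Bcl3-/- arrays were 81.1 to 86.8, so the deposited values lie on 2 scales. The labels do not say why. Scale, strain and genotype cannot be told apart for the Bcl3-/- mice, so that levels are compared only inside a scale, and the scales only through their HU minus WB changes. All 10 muscle fibre marker genes on the list, among them Ckm and Acta1, were tested, and their summed intensity was 49707 to 51812 in Nfkb1-/- HU and 52322 to 53606 in Nfkb1-/- WB muscle, and 52792 to 54660 in wild type HU and 51817 to 53476 in wild type WB muscle. Replicates of a group correlated at 0.978 to 0.997. Bcl3-/- WB replicate 2 deviated most from its group (root mean square 0.269 on the log2 scale). Changes are log2 fold changes with standard errors from 1 limma fit over all 19294 tested probe sets, and called means a Benjamini-Hochberg adjusted p under 0.05 over all of them. In whole muscle fewer cells of a type and less RNA per cell cannot be told apart.

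In HU against WB muscle of Bcl3-/- mice, 12 of the 63 USP probe sets, for 8 genes (Usp1, Usp3, Usp9x, Usp15, Usp16, Usp39, Usp45 and Usp47), rose and none fell. Of all tested probe sets, 7.59% rose and 2.81% fell in the same comparison, and the USP share that rose was 19.0%. In Nfkb1-/- mice 2 probe sets, of Usp19 and Usp36, rose and none fell, where 4.79% of all probe sets rose and 6.59% fell. In wild type mice no USP probe set passed the limma test in either direction, where 2.31% of all probe sets rose and 1.66% fell. At an unadjusted p under 0.05 there were 6 higher and 5 lower USP probe sets in wild type, and the lowest adjusted p was 0.091. In WB muscle 1 probe set, of Usp13, was higher in Nfkb1-/- than in wild type mice and none was lower, where 0.570% of all probe sets were higher and 0.332% lower.

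The typical change of the family was small. The median log2 fold change of the 63 probe sets with unloading was -0.00 in Nfkb1-/-, 0.11 in Bcl3-/- and 0.02 in wild type muscle, against -0.00, 0.02 and -0.01 for all tested probe sets. In Bcl3-/- muscle 43 of the 63 values (68.3%) were above 0 and 20 were below, where 53.6% of all tested probe sets were above 0. Among the 40 probe sets that also reached the minimum on the other arrays, 33 were above 0 in Bcl3-/- muscle with a median of 0.17, and 11 were called higher. Of all 9722 probe sets that reached it, 12.6% were called higher, and their median was 0.10. How many of the 9722 were above 0 was not counted. The 95% interval of the change lay within a 1.5-fold change in both directions for 55 of the 63 probe sets in Nfkb1-/-, 50 in Bcl3-/- and 56 in wild type muscle.

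**Figure D1:**
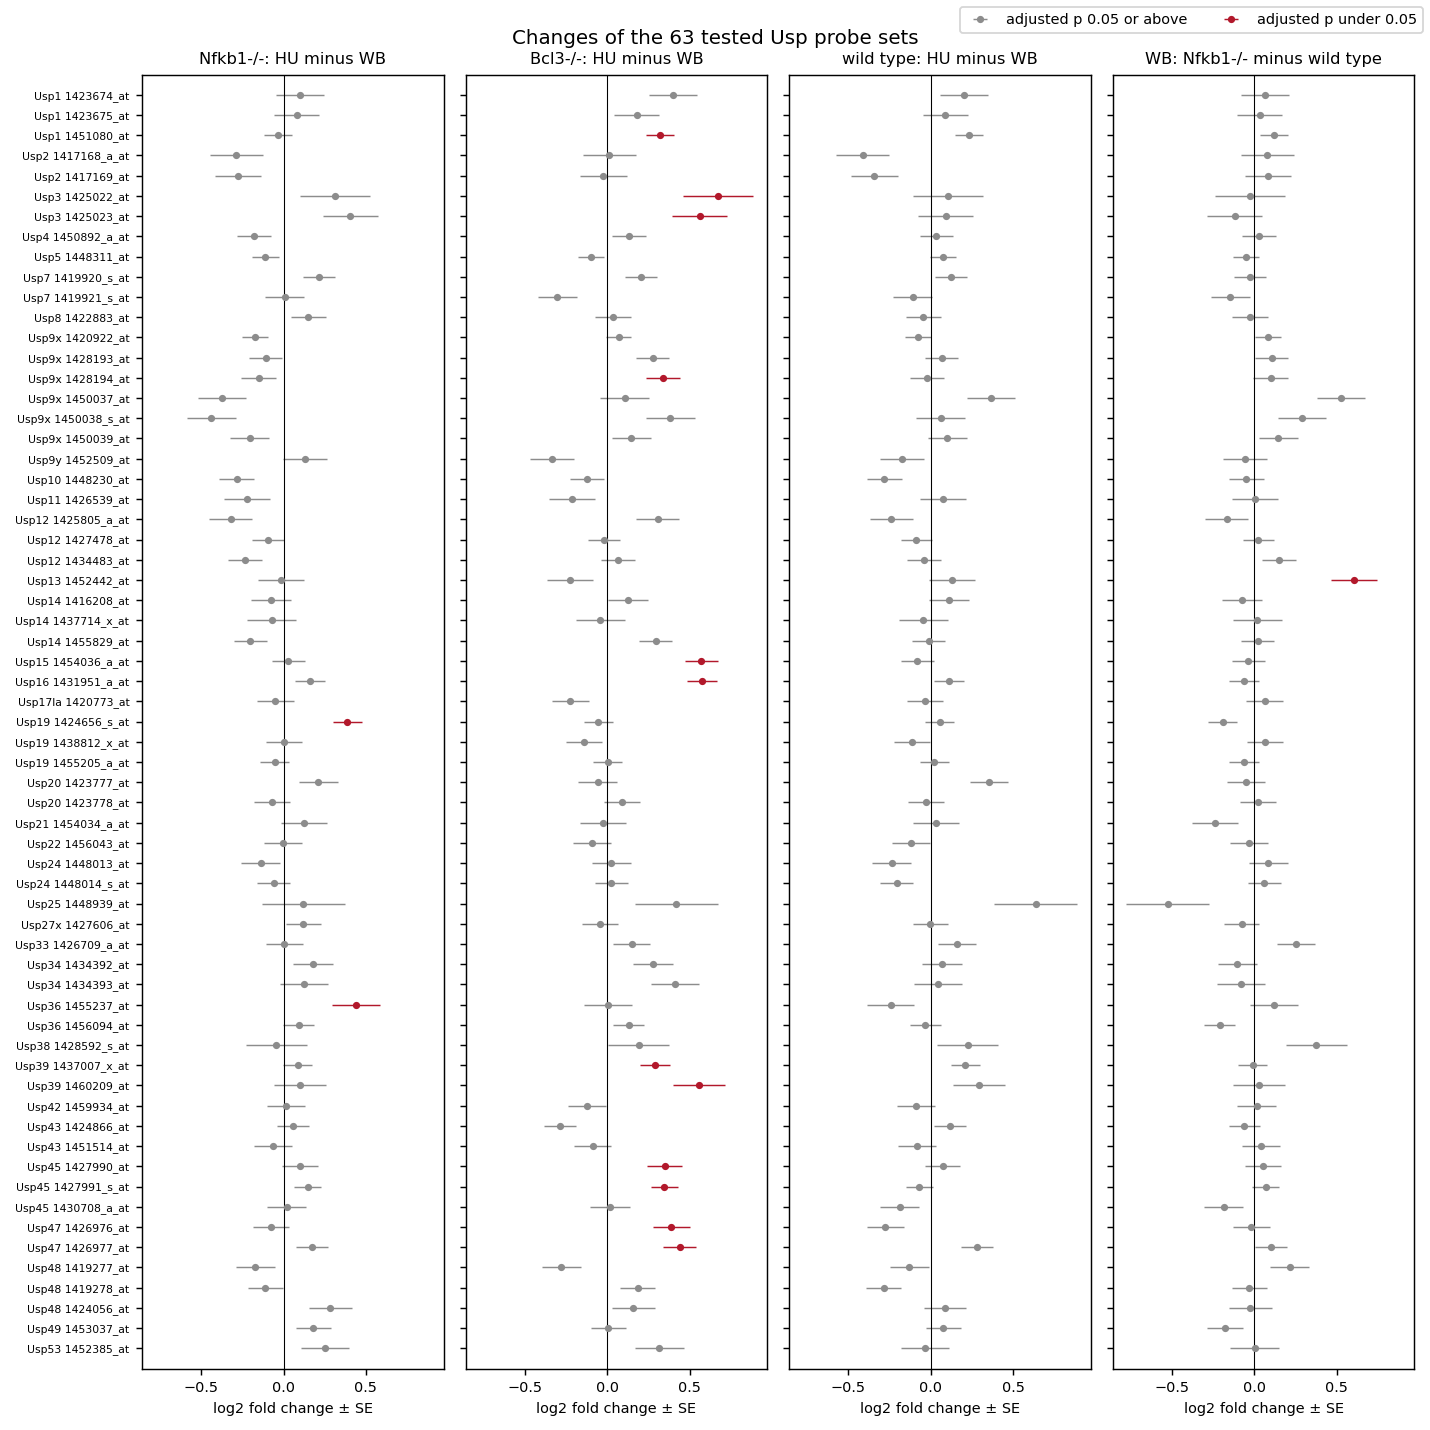
Log2 fold change with its standard error for each of the 63 tested USP probe sets (rows), for HU minus WB in Nfkb1-/-, Bcl3-/- and wild type mice and for WB Nfkb1-/- minus WB wild type mice. Red marks an adjusted p under 0.05, with 2, 12, 0 and 1 probe sets from left to right, and all of the red points lie above 0.

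The start sites of 5 of these genes are shown because their probe sets carry the calls that held without any 1 array (Usp15, Usp16, Usp45 and Usp47 in Bcl3-/-, Usp19 in Nfkb1-/- muscle) and because the knockouts remove an NF-κB subunit or its partner. Each is the window of 250 bases before to 50 after the start in RefSeq, build GRCm38.p6, on the strand of the gene. Capitals mark a loose κB pattern (GGG, then 5 bases of any kind, then CC), searched on both strands.
Usp15, chr10:123196970-123197269 (- strand): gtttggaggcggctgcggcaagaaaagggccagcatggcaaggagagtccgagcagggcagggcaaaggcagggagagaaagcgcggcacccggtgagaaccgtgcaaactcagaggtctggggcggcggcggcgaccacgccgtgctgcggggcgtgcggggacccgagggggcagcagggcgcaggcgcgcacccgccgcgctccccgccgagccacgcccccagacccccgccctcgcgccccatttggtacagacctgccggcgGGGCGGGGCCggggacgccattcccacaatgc
Usp16, chr16:87454735-87455034 (+ strand): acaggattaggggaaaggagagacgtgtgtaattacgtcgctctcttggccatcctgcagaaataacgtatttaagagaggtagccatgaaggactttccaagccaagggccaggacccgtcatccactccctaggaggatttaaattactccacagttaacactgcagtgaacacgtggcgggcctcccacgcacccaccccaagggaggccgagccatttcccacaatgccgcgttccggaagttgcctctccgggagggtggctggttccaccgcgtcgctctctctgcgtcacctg
Usp19, chr9:108490426-108490725 (+ strand): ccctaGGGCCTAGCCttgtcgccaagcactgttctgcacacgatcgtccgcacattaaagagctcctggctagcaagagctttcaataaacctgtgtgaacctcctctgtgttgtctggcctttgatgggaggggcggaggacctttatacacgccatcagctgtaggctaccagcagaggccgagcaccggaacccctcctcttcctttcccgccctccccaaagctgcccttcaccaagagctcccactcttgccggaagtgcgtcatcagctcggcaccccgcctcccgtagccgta
Usp45, chr4:21776020-21776319 (+ strand): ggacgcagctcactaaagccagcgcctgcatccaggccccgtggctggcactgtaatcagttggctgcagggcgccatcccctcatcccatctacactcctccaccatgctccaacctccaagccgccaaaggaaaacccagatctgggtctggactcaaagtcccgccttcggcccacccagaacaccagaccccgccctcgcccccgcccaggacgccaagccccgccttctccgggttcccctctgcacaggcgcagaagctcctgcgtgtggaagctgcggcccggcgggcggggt
Usp47, chr7:112023256-112023555 (+ strand): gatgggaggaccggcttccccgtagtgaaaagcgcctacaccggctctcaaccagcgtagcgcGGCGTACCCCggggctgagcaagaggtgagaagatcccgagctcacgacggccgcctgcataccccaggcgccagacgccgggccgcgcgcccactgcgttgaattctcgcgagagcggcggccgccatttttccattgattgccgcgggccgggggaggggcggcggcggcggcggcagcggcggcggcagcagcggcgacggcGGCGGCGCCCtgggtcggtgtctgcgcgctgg

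The κB letters were found 1 time in the windows of Usp15 and Usp19, 2 times in that of Usp47 and not in those of Usp16 and Usp45. The match in Usp15 overlaps a GC box (GGGCGG), of which this window has 3. The pattern is so loose that it occurred in 53.5% of the 27025 genes with such a window, and in 18 of the 28 USP genes with one. The GC box was in 18 of the 28 USP windows and 38.2% of all genes, and the E-box CACGTG in 2 of the 28, Usp16 among them, and 8.09% of all genes. Not analysed here were the windows of Usp1, Usp5, Usp9x, Usp14, Usp22, Usp33, Usp39, Usp42, Usp43 and Usp53. A match is a run of letters and was not tested as a binding site.

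Usp16 and Usp3 both take ubiquitin off histone H2A. Usp16 (1431951_a_at) had intensities of 540.1, 476, 439.5 and 444 in Bcl3-/- HU muscle, against 310.4, 344, 319 and 299.6 in Bcl3-/- WB muscle. Every HU array was above every WB array. The log2 fold change was 0.57 ± 0.09 (SE, n = 4 each, limma adjusted p = 0.00051), the lowest adjusted p of the family. In Nfkb1-/- muscle its change was 0.16 (95% interval -0.03 to 0.35) and in wild type muscle 0.11 (-0.08 to 0.30), and neither passed.

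Usp3 had 2 probe sets, and both rose in Bcl3-/- muscle. The first (1425022_at) gave 205, 208, 208 and 215 in HU and 182, 66.4, 191 and 129 in WB muscle. The HU arrays lay close together, and the WB arrays spread over a wide range, with replicate 2 lowest. Its log2 fold change of 0.67 ± 0.21 had an adjusted p of 0.044 by limma, and the call was lost without 6 of the 8 arrays, taken 1 at a time. The second (1425023_at) gave 133, 120.3, 145 and 148 in HU and 92.6, 80.3, 108 and 89.4 in WB muscle, a change of 0.56 ± 0.17 (limma adjusted p = 0.033), again without overlap, and this call too was lost without 6 of the 8 arrays. In the other genotypes no Usp3 value passed, although in Nfkb1-/- muscle the second probe set had a change of 0.40 ± 0.17 (adjusted p = 0.13). Usp21 and Usp22, which also act on histones, are named after their values were seen. Their changes in Bcl3-/- muscle were -0.03 ± 0.14 and -0.09 ± 0.12, and neither was called.

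Usp47, which acts on the repair enzyme DNA polymerase beta and binds the E3 ligase β-TrCP, rose in both of its probe sets in Bcl3-/- muscle. Probe set 1426977_at gave 2898, 2502, 2642 and 2647 in HU and 2063, 1847, 2058 and 1912 in WB muscle, a change of 0.44 ± 0.10 (limma adjusted p = 0.0066). Probe set 1426976_at gave 2527, 2191, 2424 and 2304 in HU and 2009, 1601, 1781 and 1835 in WB muscle, a change of 0.39 ± 0.11 (limma adjusted p = 0.027). In neither did the HU and WB arrays overlap, and the second call was lost without 3 of the 8 arrays. Usp45, which acts on the repair nuclease subunit ERCC1, had 3 tested probe sets. The one with a suffix for shared transcripts (1427991_s_at) gave 339, 337, 349 and 362 in HU and 267, 282, 269.9 and 272 in WB muscle, and its change was 0.35 ± 0.08 (limma adjusted p = 0.0091). The spread within each group was small beside the gap between them. A second Usp45 probe set (1427990_at) had 157, 138, 140.1 and 134 in HU and 113, 104, 112 and 117 in WB muscle (0.35 ± 0.11, limma adjusted p = 0.040), a call that was lost without 7 of the 8 arrays. The third (1430708_a_at) was not called.

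Usp1, which takes ubiquitin off FANCD2 and PCNA, also had 3 tested probe sets. Probe set 1451080_at gave 407, 344, 390.1 and 376 in Bcl3-/- HU muscle and 276, 306, 296 and 336 in WB muscle. All HU arrays were higher, and the change was 0.32 ± 0.09 (limma adjusted p = 0.020), no longer called without 3 of the 8 arrays. The other Usp1 probe sets were positive as well and not called, with adjusted p of 0.078 for 1423674_at, the closer of them. Wild type muscle had 74.2, 66.0, 73.9 and 75.9 in HU and 62.7, 64.0, 60.2 and 59.8 in WB muscle. These arrays did not overlap either, but the change of 0.23 ± 0.09 did not pass (adjusted p = 0.14). Usp12, which like Usp1 is switched on by the cofactor Wdr48, was not called (1425805_a_at, 0.31 ± 0.13, adjusted p = 0.13).

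Usp39 is a spliceosome protein with a USP fold that lacks protease activity. Probe set 1460209_at gave 364, 398, 404 and 433 in Bcl3-/- HU and 317, 171, 347 and 287 in WB muscle (0.56 ± 0.16, limma adjusted p = 0.026). The arrays did not overlap, and the lowest was WB replicate 2. Probe set 1437007_x_at gave 592, 553, 619 and 629 in HU and 563, 416, 509 and 480.3 in WB muscle (0.29 ± 0.09, limma adjusted p = 0.039), and here 1 WB array reached into the HU range. The suffix of this probe set marks probes that may bind other transcripts. The call of 1460209_at was lost without 3 of the 8 arrays (WB replicate 2, HU replicates 3 and 4) and that of 1437007_x_at without 5. Both Usp39 values of wild type muscle were also positive, 0.21 ± 0.09 and 0.29 ± 0.16, and not called.

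Usp15 and Usp9x act on components of growth factor signalling, among them the SMAD pathway. Usp15 (1454036_a_at) gave 776, 652, 620.0 and 589 in Bcl3-/- HU muscle and 461, 347, 525 and 452 in WB muscle. The lowest HU array was above the highest WB array, and the change was 0.57 ± 0.10 (limma adjusted p = 0.0012). Usp9x, which is on the X chromosome, was called in 1 of its 6 tested probe sets. This one (1428194_at) gave 835, 750.3, 726 and 814 in HU and 651, 464, 699 and 689 in WB muscle (0.34 ± 0.10, limma adjusted p = 0.040). All of the HU arrays were higher, and the call was lost without 6 of the 8 arrays. The 6 Usp9x probe sets were all above 0 in Bcl3-/- muscle (0.07 to 0.38) and all below 0 in Nfkb1-/- muscle (-0.44 to -0.11), and in Nfkb1-/- muscle none passed. Probe sets of 1 gene share its RNA and are not replicates, and the contrast between these 2 genotypes was not tested.

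**Figure D2:**
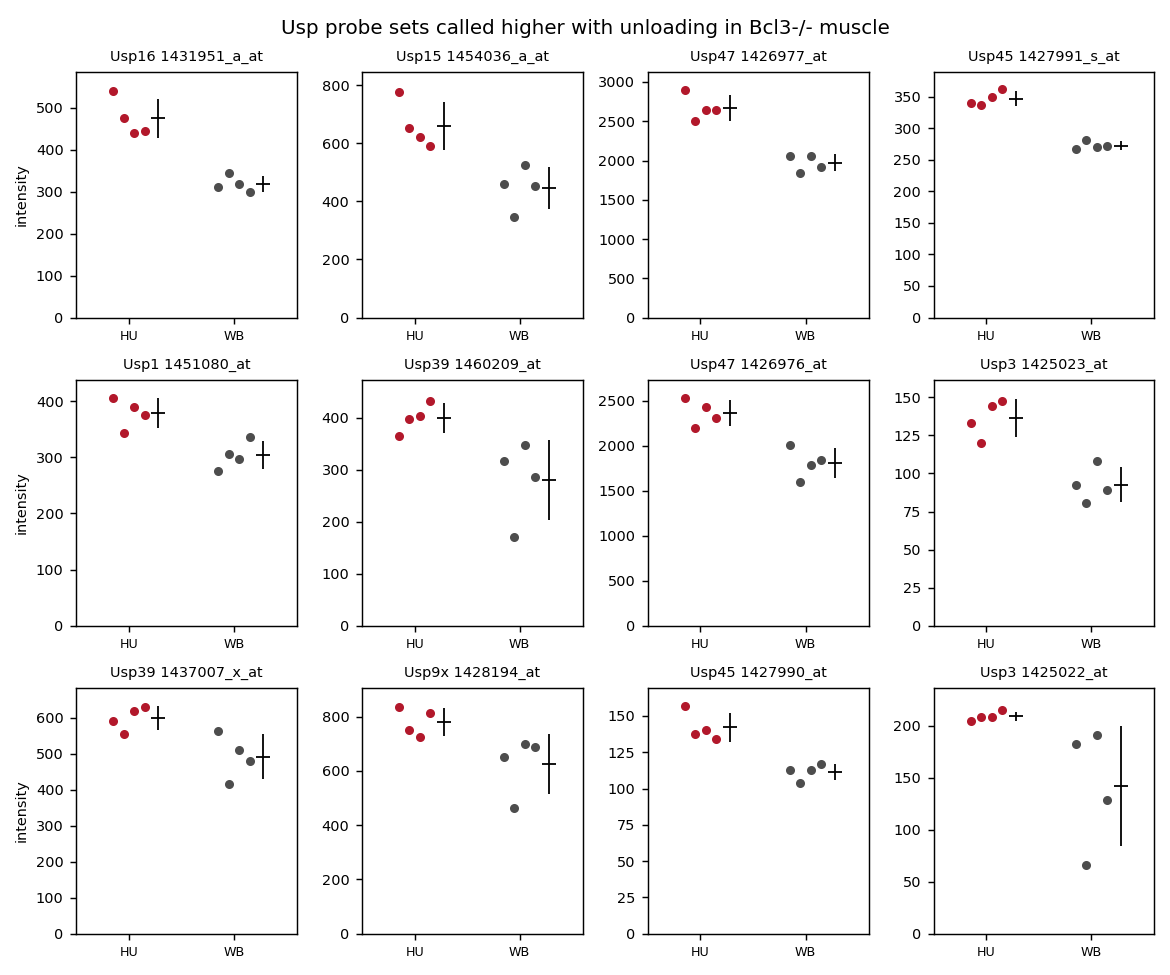
Intensity on each Bcl3-/- array (points, HU left of WB, 4 mice each) for the 12 USP probe sets called higher with unloading, in order of adjusted p, with the mean and SD of each group beside the points. In 11 panels no WB point reaches the HU points, and WB replicate 2 is the lowest WB point in 9 of the 12. The panels were chosen by their calls on these arrays, which favours such a gap. Of all 63 tested USP probe sets 16 were higher and 1 lower without overlap. The share among all probe sets was not counted, so these counts do not set the USPs apart from other genes. In the same comparison 7.59% of all tested probe sets were called higher and 2.81% lower.

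The number of calls in Bcl3-/- muscle depended on single arrays. It was 5 without WB replicate 2, which was the lowest WB array in 9 of the 12 probe sets, 4 without HU replicate 3, 6 without HU replicate 1 (1 of these lower) and 6 without HU replicate 4. It was 10 to 13 without each of the other arrays. The share of USP probe sets called higher was then also nearer to that of all probe sets. It was 7.94% against 5.50% without WB replicate 2, 6.35% against 4.61% without HU replicate 3, 7.94% against 4.01% without HU replicate 1 and 9.52% against 5.47% without HU replicate 4. In a fit of only the Bcl3-/- arrays 8 were called, 7 of them among the 12. The share called higher was then 12.7% of USP and 4.14% of all probe sets. The calls of Usp16, Usp15, Usp45 1427991_s_at and Usp47 1426977_at held without any 1 of the 8 arrays.

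**Figure D3:**
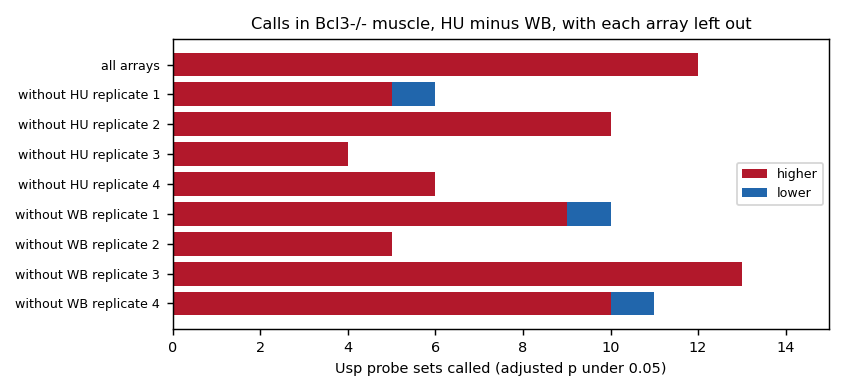
Number of USP probe sets called in Bcl3-/- muscle (HU minus WB, bar length) with all arrays and with each of the 8 arrays left out in turn, higher in red and lower in blue. The count is 12 with all arrays and lies between 4 and 13 with 1 array left out.

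Markers of other cells moved in the same comparison. Of 4 neutrophil markers measured, S100a8 and S100a9 rose, and the summed intensity of the list was 313 to 780.1 in Bcl3-/- HU against 162 to 178 in Bcl3-/- WB muscle. Of 8 fibroblast and tendon markers 3 fell, with sums of 19420 to 26326 in HU and 26788 to 37306 in WB muscle. Of 3 Schwann cell and nerve markers Mbp rose (sums of 2044 to 4158 in HU and 1486 to 2834 in WB muscle), and of 9 satellite and regenerating cell markers Myf5 rose (1201 to 1538 in HU and 1270.0 to 1469 in WB muscle). No marker was at 0. The summed muscle fibre markers were 160222 to 162062 in HU and 147967 to 161371 in WB muscle, and of the 10 only Actn3 was called (higher). The part of these cells in the USP changes was not tested.

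Whether the response in Bcl3-/- muscle differed from that in wild type muscle was tested directly, and 2 of the 63 USP probe sets passed, both higher, where 0.803% of all probe sets were called higher and 0.264% lower. For Usp15 the difference of the responses was 0.65 ± 0.14 (limma adjusted p = 0.024). Usp15 in wild type muscle gave 242, 225, 242 and 257 in HU and 250.4, 268, 263 and 241 in WB muscle, a change of -0.08 (95% interval -0.29 to 0.13). The wild type groups overlapped, and the interval lay within a 1.5-fold change in both directions. For Usp47 1426976_at the difference was 0.67 ± 0.16 (limma adjusted p = 0.037). The wild type arrays had 325, 364, 424 and 468 in HU and 495, 459, 508 and 439 in WB muscle, a change of -0.28 ± 0.11 that was not called (adjusted p = 0.18).

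The other Usp47 probe set did not show this difference. For 1426977_at the wild type arrays had 504, 522, 626 and 660.3 in HU and 505, 465, 494 and 432 in WB muscle, a change of 0.28 ± 0.10 (adjusted p = 0.11). The 2 probe sets of Usp47 thus had changes of opposite sign in wild type muscle, neither of them called, and the same sign in Bcl3-/- muscle. The difference of the responses was 0.16 ± 0.14 for 1426977_at (adjusted p = 0.67). For Usp16 it was 0.46 ± 0.13 and for Usp45 1427991_s_at 0.42 ± 0.12, with adjusted p of 0.085 and 0.084, so that a difference from wild type was not established for them. Both called differences were lost in fits of only the 4 groups compared. The Usp15 difference was also lost without 3 of the 16 arrays and the Usp47 difference without 9 of them.

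**Figure D4:**
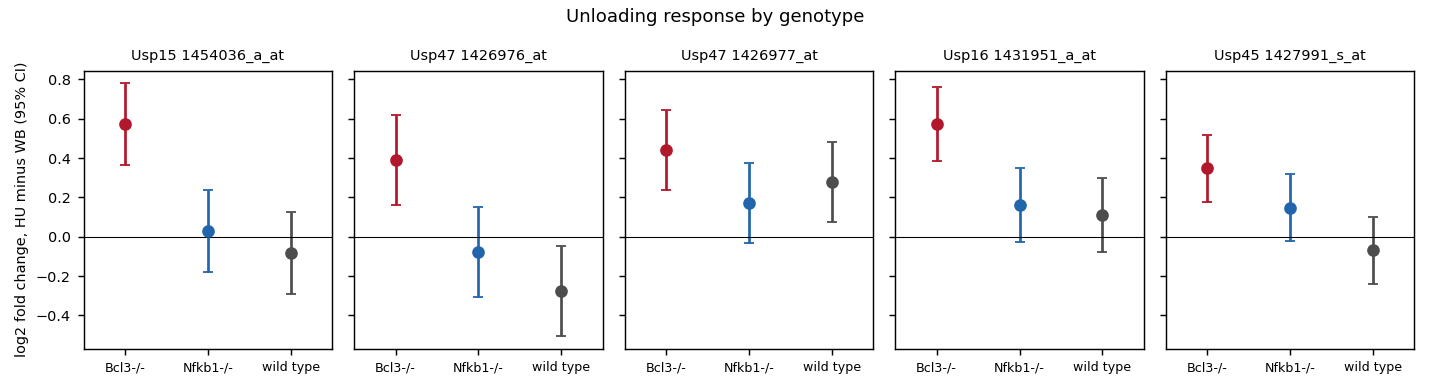
Log2 fold change of HU over WB muscle with its 95% interval (bars) in Bcl3-/-, Nfkb1-/- and wild type mice for the 4 USP genes that kept a call in Bcl3-/- muscle without any 1 array, with both Usp47 probe sets. All 5 probe sets were called higher in Bcl3-/- muscle, so that their intervals there must lie above 0. The Usp47 probe sets part in wild type muscle at -0.28 and 0.28.

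In Nfkb1-/- muscle the call that held was Usp19, a protease with a form anchored in the endoplasmic reticulum, known from rats for a rise in several kinds of muscle wasting. Probe set 1424656_s_at gave 77.1, 76.4, 74.9 and 82.3 in Nfkb1-/- HU muscle and 56.7, 61.5, 61.9 and 57.5 in Nfkb1-/- WB muscle. The groups were well apart, and the change was 0.39 ± 0.09 (limma adjusted p = 0.0052), which stayed called without any 1 of the 8 arrays. In wild type muscle the same probe set gave 72.9, 63.4, 72.0 and 73.3 in HU and 61.4, 66.5, 70.2 and 73.6 in WB muscle, a change of 0.05 (95% interval -0.13 to 0.24).

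The other Usp19 probe sets did not move with it. Probe set 1455205_a_at gave 112, 124, 109 and 89.5 in Nfkb1-/- HU and 111, 115, 115 and 108 in Nfkb1-/- WB muscle, a change of -0.05 with an interval of -0.24 to 0.13. Probe set 1438812_x_at, with intensities of 11.0 to 14.5 in HU and 11.3 to 12.7 in WB muscle, had a change of -0.00 (-0.23 to 0.23). The interval of 1424656_s_at, 0.21 to 0.57, reached neither of these estimates, but it overlapped the interval of 1438812_x_at. The probe sets were not tested against each other. The called set, 1424656_s_at, has the suffix for shared transcripts. Which transcripts each set detects, of Usp19 or of other genes, was not determined. The difference between the Nfkb1-/- and wild type responses of 1424656_s_at was 0.33 ± 0.12 and did not pass (adjusted p = 0.27). No USP probe set passed that test in either direction, where 0.0570% of all probe sets were called higher and 0.119% lower. At an unadjusted p under 0.05 there were 2 higher and 3 lower. These were 7.94% of the members, where 12.3% of all probe sets reached that p in either direction.

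Usp36, a nucleolar protease, was called in Nfkb1-/- muscle by a narrow margin. Probe set 1455237_at gave 30.4, 33.6, 32.8 and 33.6 in HU and 23.0, 26.8, 25.1 and 21.6 in WB muscle, without overlap. Its change was 0.44 ± 0.14 (limma adjusted p = 0.049), and the call was lost without any 1 of the 8 arrays. The wild type values were 14.6, 15.3, 22.6 and 24.2 in HU and 26.7, 16.3, 22.1 and 24.9 in WB muscle, a change of -0.24 ± 0.14. The difference of the responses was 0.68 ± 0.20 with an adjusted p of 0.16. The second Usp36 probe set (1456094_at) was dim, below 5 on all Nfkb1-/- arrays, and was not called. In the same comparison 2 of 4 neutrophil markers rose, with sums of 52.3 to 129 in Nfkb1-/- HU and 24.8 to 37.0 in Nfkb1-/- WB muscle, and 3 of 8 fibroblast and tendon markers fell, with sums of 3114 to 5106 in HU and 5759 to 6619 in WB muscle. The macrophage marker Lgals3 (1 of 10; sums 534 to 975 in HU and 509 to 676 in WB), the satellite and regenerating cell marker Chrna1 (1 of 9; 187 to 264 in HU and 157 to 190.1 in WB), the adipocyte marker Adipoq (1 of 3; 968 to 1266 in HU and 752 to 1042 in WB) and the nerve marker Mbp (1 of 3; 516 to 788 in HU and 336 to 432 in WB) rose. The endothelial marker Emcn fell (1 of 6; 269 to 313 in HU and 291 to 385 in WB). The muscle fibre sums, given above, were lower in Nfkb1-/- HU than in Nfkb1-/- WB muscle without overlap, and none of the 10 genes was called. Their part in the USP values was not tested.

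Usp13, a relative of the free-chain protease Usp5, was the member that differed between the genotypes without unloading. Probe set 1452442_at gave 66.3, 60.6, 74.5 and 66.4 in Nfkb1-/- WB muscle and 56.5, 40.4, 42.5 and 38.3 in wild type WB muscle. All Nfkb1-/- arrays were higher, with wild type WB replicate 1 the nearest to them. The log2 difference was 0.60 ± 0.14 (limma adjusted p = 0.033). The HU arrays, which this comparison did not use, gave 62.3, 67.7, 71.7 and 62.9 in Nfkb1-/- and 48.7, 50.5, 40.5 and 53.1 in wild type mice, again without overlap. Usp13 did not pass with unloading in Nfkb1-/- (-0.02 ± 0.14) or in wild type muscle (0.13 ± 0.14). The WB call was lost without 6 of the 8 arrays, and the genotypes also differ in strain. Of 10 macrophage markers 1, Ctss, was higher in Nfkb1-/- WB muscle, where the sum of the list was 509 to 676, against 399 to 501 in wild type WB muscle, and its part in the Usp13 value was not tested. The comparison of WB mice shares its arrays with the HU comparisons of both genotypes.

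**Figure D5:**
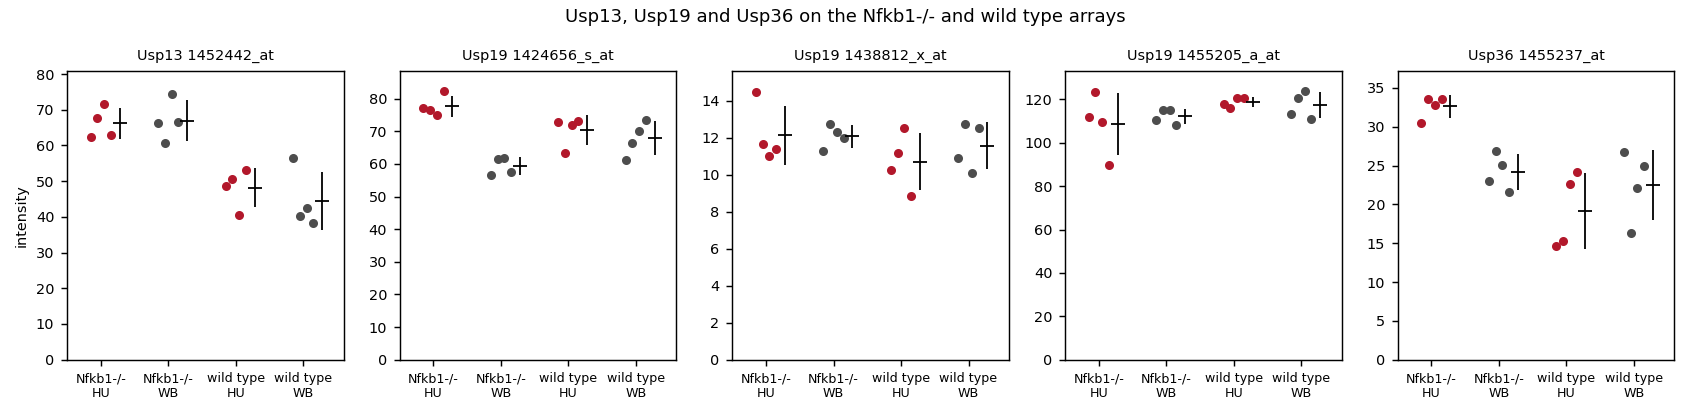
Intensity on each Nfkb1-/- and wild type array (points, 4 mice per group, HU left of WB) with the mean and SD of the group, for Usp13, the 3 Usp19 probe sets and Usp36. Usp13 is higher in both Nfkb1-/- groups than in both wild type groups, and of the Usp19 sets only 1424656_s_at has all 4 Nfkb1-/- HU points above all Nfkb1-/- WB points.

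Usp14, Usp5 and Usp7 were not called in any comparison. Usp14, which sits on the proteasome and trims chains from its substrates, had 3 tested probe sets with changes of -0.20 to -0.07 in Nfkb1-/-, -0.04 to 0.29 in Bcl3-/- and -0.05 to 0.11 in wild type muscle. The nearest to a call was 1455829_at in Bcl3-/- muscle, with 368, 306, 325 and 389 in HU and 313, 276, 283 and 259 in WB muscle (0.29 ± 0.10, adjusted p = 0.061), and here 1 HU array lay within the WB range. Usp5, which takes free ubiquitin chains apart, had changes of -0.11, -0.10 and 0.08 in Nfkb1-/-, Bcl3-/- and wild type muscle, each with a standard error of 0.08. Usp7, which acts on MDM2 and p53, was not called in either probe set, and its brighter one (1419920_s_at) had changes of 0.21, 0.21 and 0.12 in the same order. Its other one (1419921_s_at) had changes of 0.01, -0.30 and -0.11, and did not reach the intensity minimum on the wild type and Nfkb1-/- arrays.

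The members nearest to a call in wild type muscle are described with their values because the test left none. Usp20, a protease that binds the von Hippel-Lindau protein, had the lowest adjusted p. Probe set 1423777_at was dim and gave 11.1, 11.3, 11.8 and 14.4 in HU and 10.1, 8.52, 10.8 and 8.60 in WB muscle (0.35 ± 0.12, adjusted p = 0.091). The groups did not overlap. The other Usp20 probe set (1423778_at), which was dimmer still, had a change of -0.03 ± 0.11 (limma adjusted p = 0.93), and its groups overlapped. Usp2, a protease of the circadian clock, had lower arrays in HU muscle in both probe sets. Probe set 1417168_a_at gave 297, 245, 230.1 and 218 in HU and 325, 339.8, 308 and 338 in WB muscle (-0.41 ± 0.16, adjusted p = 0.15), and 1417169_at had a change of -0.34 ± 0.14 (adjusted p = 0.19). In neither probe set did the groups overlap. In Nfkb1-/- muscle these changes were -0.29 and -0.28, and in Bcl3-/- muscle 0.01 and -0.02. None of the 3 genotypes passed for Usp2, and the differences between the responses did not pass either.

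Usp10, which binds the stress granule protein G3BP1, had changes of -0.28 ± 0.11 in both Nfkb1-/- and wild type muscle, with adjusted p of 0.086 and 0.14. Usp48 had a change of -0.29 ± 0.11 in wild type muscle (1419278_at, adjusted p = 0.13), where no HU array reached the WB arrays, and its 3 probe sets did not share a sign. Such disagreement was frequent. Of the 17 genes with more than 1 tested probe set, the signs of the changes agreed for 11 in Nfkb1-/-, 10 in Bcl3-/- and 8 in wild type muscle.

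Other deubiquitinase families were measured for comparison, with 1 probe set per gene, the brightest, for 30 genes. In Bcl3-/- muscle 5 rose and 1 fell, in Nfkb1-/- muscle 3 rose and 2 fell, and in wild type muscle 3 rose and 1 fell. None differed between WB Nfkb1-/- and WB wild type muscle. The shares that rose were 16.7%, 10% and 10% of the 30 genes. In a separate fit of 1 probe set per gene, 8 of 36 USP genes (22.2%) rose in Bcl3-/- muscle, where 7.70% of all genes did. In that fit 1 USP gene (2.78%) rose in Nfkb1-/- and 0 in wild type muscle, where 5.48% and 2.22% of all genes did. Of all 11098 genes 342, 806 and 195 fell in Bcl3-/-, Nfkb1-/- and wild type muscle. Uchl5, a proteasome deubiquitinase outside the USP family, rose in Bcl3-/- muscle (0.32 ± 0.10, limma adjusted p = 0.047). Eif3h (0.33 ± 0.08) and Cops6 (0.36 ± 0.08), subunits of larger complexes, rose in it as well. Otud6b, of the ovarian tumour family, rose there too (0.41 ± 0.10, adjusted p = 0.0091), and Josd2, of the Josephin family, fell (-0.36 ± 0.10, adjusted p = 0.026). Josd2 also fell in Nfkb1-/- muscle (-0.58 ± 0.10, adjusted p = 0.00085), where Zranb1 (0.66 ± 0.21, adjusted p = 0.044) and Mindy1 (0.50 ± 0.15, adjusted p = 0.029) rose.

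Among the metalloproteases, which are not related to the USPs in fold, Eif3f, a subunit of a translation initiation factor, rose in Nfkb1-/- (0.26 ± 0.07), Bcl3-/- (0.44 ± 0.07) and wild type muscle (0.27 ± 0.07). Mpnd fell in Nfkb1-/- (-0.70 ± 0.08) and wild type muscle (-0.54 ± 0.08) and was not called in Bcl3-/- muscle, and the difference between its Bcl3-/- and wild type responses passed (0.58 ± 0.12, limma adjusted p = 0.016). Cops5, the subunit that takes Nedd8 off cullins, rose in wild type muscle (0.48 ± 0.10, adjusted p = 0.0067), and Uchl1 rose there too (0.65 ± 0.16, adjusted p = 0.023). Of the 13 tested USP cofactors, Sgf29, a subunit of the complex that carries Usp22, rose in wild type muscle (0.64 ± 0.13, adjusted p = 0.0075) and G3bp2 fell in Nfkb1-/- muscle (-0.32 ± 0.09, adjusted p = 0.026), and none was called in Bcl3-/- muscle.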

How the data were processed

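Gastrocnemius and plantaris RNA of 24 mice was measured on 24 Affymetrix arrays, 4 in each of 6 groups taken from the sample labels. The authors used RMA, which corrects background, normalizes by quantiles and summarizes the probes of a set, and deposited linear intensities in 1 table. Per the labels, GCOS and RMA were the tools. Every value column was used, and 64 of the 22690 rows were controls.

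Probe sets with an intensity above 20 on at least 4 arrays were tested. Log2 intensities were fitted with 1 mean per group using lmFit, contrasts.fit and eBayes of limma 3.58.1 under R 4.3.3, with 18 residual and 5.89 prior degrees of freedom, and p-values were adjusted over all 19294 probe sets by Benjamini-Hochberg. Contrasts tested were HU minus WB within each genotype, WB Nfkb1-/- minus WB wild type, and each knockout's response minus that of wild type. The script was tested on simulated data. The number of arrays limits the precision.

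Genes come from the platform annotation, with symbols updated to RefSeq GRCm38.p6. Named are every called USP probe set, the 4 others with the lowest p, and Usp2, Usp5, Usp7, Usp9x, Usp10, Usp13, Usp14 and Usp19, with the called genes of the other lists. Usp21, Usp22 and Usp25 were named after their values were seen. The members and lists were chosen with earlier results of these data known. Same-numbered replicates did not pair: correlations of their deviations were -0.17 to 0.22.

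Alternatives were other filters, fits of only the groups compared, array weights, a variance trend with robust estimation, log2 of intensity plus 16, centring on array medians, a repeated quantile normalization, 1 probe set per gene, the replicate block, the methods' t-test and leaving out each array. Quantile normalization again within the arrays of each intensity scale was added after seeing the data.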

Additional observations from a re-analysis of the deposited data

Results flagged for a closer look

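The 15 called USP probe sets were checked in all 6 groups for an array far from the other 3, which gives 90 checks, and chance flags about 1 in 20 of them. In 1 of the 90, Usp19 (1424656_s_at) in wild type HU muscle, replicate 2 had an intensity of 63.4, against 72.0 to 73.3 on the other 3 arrays.

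The unloading response differed between Bcl3-/- and wild type muscle for Usp15 (1454036_a_at), with a difference of 0.65 on the log2 scale (limma adjusted p = 0.024), and for Usp47 (1426976_at), with a difference of 0.67 (adjusted p = 0.037). The second Usp47 probe set had a difference of 0.16 (adjusted p = 0.67). Intensity scale, strain and genotype cannot be told apart in these differences.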

How the results depend on the processing

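Counts of called USP probe sets were small and moved with the processing, and they are not on 1 base where a filter or test changed how many members entered. In wild type muscle the count of 0 (limma) became 8 with array weights (4 higher, 4 lower, with 6.35% of members and 6.00% of all probe sets higher), 1 with quantile normalization again and 2 with quantile normalization within each scale, a setting chosen after seeing the data (all lower). Of all 19294 probe sets 1076, 384 and 494 were lower, in the same order. In Nfkb1-/- muscle the 2 higher calls became 8 with array weights, 5 with the filter within the groups compared and with quantile normalization within each scale, and 4 with quantile normalization again, 2 of each being lower. With each of these settings the share called higher was lower among members than among all probe sets. It was 9.52% against 10.2% with array weights and 4.76% against 6.15% with quantile normalization within each scale. A fit of only the groups compared gave 3 calls, all higher, which were 4.76% of members against 4.59% of all. The count in Nfkb1-/- muscle was 1, Usp19, with no filter, centring on array medians and log2 of intensity plus 16. It was also 1, but Usp36, with 1 probe set per gene. With the filter of the methods and the methods' t-test at both thresholds only 4 members were tested, and 1 other probe set was called, lower. Of all 1721 probe sets tested there 572 were lower with that filter. With the t-test 428 were lower after Benjamini-Hochberg and 524 at the methods' thresholds. In Bcl3-/- muscle the 12 calls became 21 with log2 of intensity plus 16 (18 higher, 3 lower, where 14.9% of all were higher), 7 with quantile normalization within each scale, and 2 or 3 of 16 tested with the methods' t-test after Benjamini-Hochberg or at the methods' thresholds. The 7 were 11.1% of members, where 5.88% of all were higher. With the t-test 12.5% or 18.8% of members were higher, where 5.70% or 13.8% of all were. In WB Nfkb1-/- against wild type muscle the 1 call became 3 with array weights (1 lower) and 0 with quantile normalization again or log2 of intensity plus 16. With array weights 3.17% of members and 1.52% of all were higher. For the Bcl3-/- response minus the wild type response, the 2 calls became 0 in fits of only the groups compared (with either filter), 5 of 56 tested with the filter of the methods, 4 with array weights (1 lower) or log2 of intensity plus 16, and 1 with centring or 1 probe set per gene. With the filter of the methods 8.93% of members and 3.46% of all were higher. These shares were 4.76% and 1.30% with array weights, and 6.35% and 2.24% with log2 of intensity plus 16. The cause was not tested.

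Without 1 array the counts were 1 to 2 in Nfkb1-/-, 4 to 13 in Bcl3-/-, 0 to 1 in wild type muscle, 0 to 1 between WB Nfkb1-/- and wild type mice, 0 to 3 for the Bcl3-/- response difference and 0 for that of Nfkb1-/-. Replicate numbers did not pair the samples (best match with the own number in 0 to 2 of 4). With the replicate block the calls were 1 in Nfkb1-/-, 11 in Bcl3-/-, 0 in wild type muscle, 1 between WB mice, and 1 and 0 for the response differences of Bcl3-/- and Nfkb1-/-. The 11 were 17.5% of members, where 7.16% of all probe sets were higher. Among the USP probe sets named by the rule, no value changed sign past the threshold under any setting run. The other members were not checked for this.

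For the 63 probe sets the 95% half-width of a change within a genotype had a median of 0.24 on the log2 scale (0.16 to 0.52), and that of a response difference 0.33. On the wild type and Nfkb1-/- arrays 23 of the 63 did not reach the intensity minimum, which limits what their values there can show.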

Other observations

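Usp25, a protease with a muscle form, was uneven within wild type WB muscle. Its probe set 1448939_at had 171, 152, 58.9 and 57.3 there, and 125, 123, 196 and 171 in wild type HU muscle. The change was 0.64 ± 0.25 and did not pass (adjusted p = 0.17). Nfkb1-/- arrays lay between 61.4 and 89.1 in HU and between 61.7 and 73.3 in WB muscle. In Bcl3-/- muscle all HU arrays (1203 to 1424) were above all WB arrays (864 to 1073), without a call (0.42 ± 0.25, adjusted p = 0.31).

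Usp9x 1450037_at, a dim probe set, had the lowest adjusted p for a different response in Nfkb1-/- muscle. It gave 8.50, 9.98, 11.0 and 8.84 in Nfkb1-/- HU and 14.7, 9.93, 10.8 and 14.8 in Nfkb1-/- WB muscle, against 12.3, 10.1, 10.3 and 11.5 in wild type HU and 9.70, 9.93, 6.57 and 8.58 in wild type WB muscle. The difference of the responses was -0.74 ± 0.21 and did not pass (adjusted p = 0.13).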
